A study of Mus musculus with 10 samples.

Results

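Genes that help to end the rod light response and return the cell to its dark state were followed at the chromatin level. These were Grk1, Rgs9, Rgs9bp, Gnb5, Gucy2e, Gucy2f, Guca1a, Guca1b, Rcvrn and Slc24a1. They were chosen by symbol, and all 10 were found in 12 entries of a gene table that holds 25152 entries of 20045 symbols. H3K4me2, a histone mark of active and poised promoters and enhancers, and H3K27me3, the mark that Polycomb complexes place on silent genes, were measured by ChIP-Seq in whole mouse retina at E17.5, PN1, PN7 and PN15 (E, embryonic day, and PN, postnatal day), with no further agent. At least 20 retinas of a stage were pooled for its chromatin, and 1 library was made for each mark and stage. The study's methods give wild type C57BL/6j mice for this time course, whereas the labels of every library name Pde6b (rd1/rd1) mutant mice, a strain whose rods degenerate. Only the PN30 library has rd1 in its title, and the labels' extract protocol describes these mutants as a control for subtracting rods. The antibody labels print the catalogue numbers of both antibodies beside each mark, so the mark was taken from its name in the title, the antibody label and the column. Of the 10 samples of the series, the PN30 rd1/rd1 library of H3K4me2 and the anti-GFP library of PN56 were not analysed here.

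Photon capture activates the G protein transducin, which switches on a phosphodiesterase, and the fall in cyclic GMP closes the cation channels of the outer segment. Shutoff needs the kinase Grk1, which acts at the first step of the cascade, and the complex of Rgs9, Gnb5 and the membrane anchor Rgs9bp, which speeds the hydrolysis of GTP by transducin. When the channels are closed, the exchanger Slc24a1 keeps removing calcium. The fall in calcium releases the guanylate cyclase activating proteins Guca1a and Guca1b to stimulate the retinal guanylate cyclases Gucy2e and Gucy2f, and relieves the inhibition of Grk1 by recoverin (Rcvrn). Gnb5 and Rgs9 also act in other neurons, and several of these proteins serve in cones as well as rods.

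The starts of 7 of the 10 genes were matched to the RefSeq promoter table (GRCm38.p6), each identical to the mm9 genome, and the letters TAATCC, the core that the photoreceptor factor CRX prefers, were searched on both strands in the 250 bases upstream. They were found at Gnb5, Guca1a, Gucy2e and Gucy2f, 4 of 7, beside 6.25% of 32851 promoters of the same length. The 120 bases upstream of these starts are shown 5′ to 3′ on the strand of the gene, with the matches (TAATCC or its complement) in capitals, because they set these genes apart from Grk1 and Slc24a1 below, which had no match.
Guca1a: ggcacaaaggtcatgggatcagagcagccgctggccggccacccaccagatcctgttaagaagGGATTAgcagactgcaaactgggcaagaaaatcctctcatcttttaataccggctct
Gucy2f: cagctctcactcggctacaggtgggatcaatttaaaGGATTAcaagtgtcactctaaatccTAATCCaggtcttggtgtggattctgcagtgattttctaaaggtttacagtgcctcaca
Gucy2e: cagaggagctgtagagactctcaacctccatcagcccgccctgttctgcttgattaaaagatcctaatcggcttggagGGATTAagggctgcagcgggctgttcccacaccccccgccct
Gnb5: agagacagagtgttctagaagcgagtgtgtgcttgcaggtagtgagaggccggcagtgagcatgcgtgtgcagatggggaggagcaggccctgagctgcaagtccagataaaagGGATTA
In mm9 they lie at chr17:47537556-47537675 (minus strand), chrX:138631480-138631599 (minus), chr11:69050525-69050644 (minus) and chr9:75153975-75154094 (plus). Counted from the last base before the start as -1, the first base of the match was at -57 in Guca1a, at -84 and -59 in Gucy2f, at -42 in Gucy2e and at -6 in Gnb5. The Gnb5 sequence belongs to the RefSeq start, 5107 bp from the start in the GENCODE vM1 annotation.

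Grk1 and Slc24a1 are shown as the contrast, from chr8:13404961-13405080 (plus) and chr9:64799428-64799547 (minus).
Grk1: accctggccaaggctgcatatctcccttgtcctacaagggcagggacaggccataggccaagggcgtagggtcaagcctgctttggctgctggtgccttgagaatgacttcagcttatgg
Slc24a1: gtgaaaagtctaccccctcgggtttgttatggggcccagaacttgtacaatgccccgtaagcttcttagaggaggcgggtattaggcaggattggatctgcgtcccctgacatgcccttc
These windows held none of the 3 other motifs either, namely searched on both strands too, TGCTGA (the shorter core that NRL prefers), CANNTG (the E-box) and GGGCGG (the GC box). TGCTGA was found at Rgs9 alone, 1 of 7, beside 16.1% of all promoters. CANNTG was found at Gnb5, Gucy2e, Gucy2f and Rgs9, beside 66.2%, and GGGCGG at Gucy2e and Rgs9, beside 32.7%. No TAATCC match overlapped a match of another motif. A match describes the letters only, and genes with and without TAATCC were both found among those whose H3K4me2 came late, as given below. Rgs9bp, Guca1b and Rcvrn had no entry in the table.

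Values are normalized occupancies, the reads within 2.5 kb of a RefSeq TSS relative to all mapped reads of the library. Their sums ran from 698257 to 1200594 in the 4 H3K4me2 libraries and from 590366 to 980808 in the 4 H3K27me3 libraries, and the number of reads behind them is unknown. Brackets hold 95% intervals that take 1 unit as 1 read, the fewest reads the values allow, and cover counting error only. With 1 library per mark and stage there was no replicate error and no test between stages. A gene was called higher or lower when the ratio of its values plus 1 differed at least 2-fold from the median ratio of all symbols, and changes on the log2 scale are given relative to that median. The background level was the 99th percentile of 1053 olfactory receptor entries, genes silent in retina, which was 6, 9, 1 and 9.48 for H3K4me2 and 33.5, 44.0, 40.5 and 41.5 for H3K27me3 from E17.5 to PN15. The H3K4me2 library of PN7 stood apart, with 19.5% of its entries at 0 against 0.362% to 2.52% in the other 3. As to tissue, the H3K4me2 of 6 rod markers was 9 to 35 at E17.5, and 53 to 158 by PN15. The range of the 5 progenitor markers was 90 to 118 at E17.5, then 36 to 120 by PN15, and that of the 5 ganglion cell markers 26 to 77, then 15 to 32. For the 4 bipolar markers it was 10 to 80, then 15 to 154, for the 4 amacrine markers 29 to 54, then 13 to 104, for the 3 horizontal cell markers 20 to 71, then 16 to 42, for the 4 Mueller glia markers 12 to 88, then 6 to 111, and for the 4 cone markers 2 to 32, then 1 to 24. The range of their H3K27me3 at E17.5 and at PN15 was 24 to 451 and 13 to 121 in the bipolar list, 14 to 457 and 12 to 239 in the amacrine list, 51 to 365 and 81 to 223 in the ganglion cell list, and 50 to 564 and 64 to 304 in the horizontal cell list. It was 4 to 30 and 4 to 16 in the rod list, 8 to 23 and 5 to 136 in the Mueller glia list, 8 to 51 and 21 to 95 in the cone list, and 4 to 71 and 11 to 182 in the progenitor list. None of these markers was at 0 at either stage, and their part in the results below was not tested. The lists of pigment epithelium, vessel or blood and other organs held 4 markers each. In H3K4me2, 1 of each list exceeded the receptor level at E17.5 (Ttr 16, Cdh5 20 and Myh6 7). Ttr (15) and Cdh5 (15) did so at PN1, Cdh5 (5) and Myh6 (2) at PN7, and none at PN15 (highest 8, 4 and 7). In H3K27me3 Ttr alone of these markers exceeded it, at PN7 (68) and PN15 (62). Since the tissue was whole retina, a larger share of cells that carry a mark and more of the mark per cell cannot be told apart.

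By PN15 all 10 genes carried H3K4me2, between 47.0 and 174, with a median at percentile 81.5 of all symbols, whereas at E17.5 their median was at percentile 31.4. Between E17.5 and PN15, 6 of 10 were called higher (Rcvrn, Slc24a1, Guca1b, Gucy2f, Grk1 and Guca1a) and none lower, where 5.17% of all symbols were higher. The remaining Gucy2e, Gnb5, Rgs9bp and Rgs9 had a change of 0.96, 0.76, 0.66 and 0.59 log2 units, and their H3K4me2 was at 42 to 100 already at E17.5. The median change was 2.23 for the 10 genes and by construction 0.00 over all symbols. In H3K27me3, Rgs9bp, Slc24a1, Gucy2e and Guca1a were called lower and none higher, 4 of 10 beside 16.1% of all symbols.

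**Figure D1:**
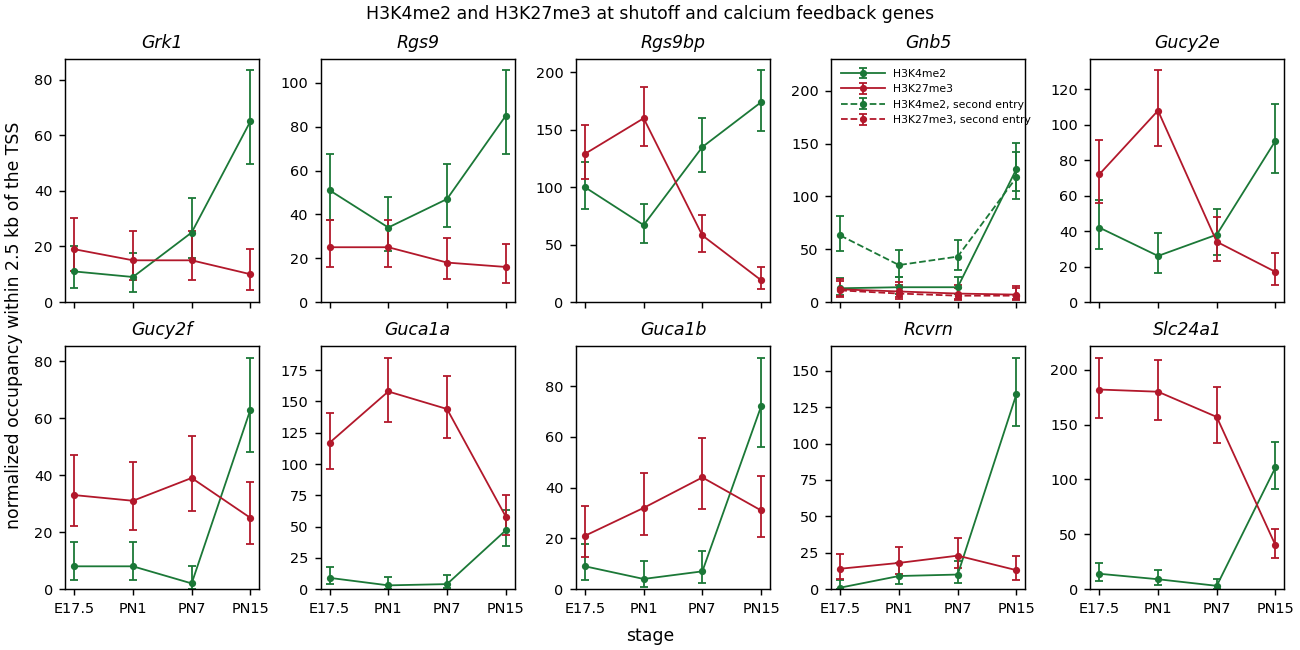
Normalized occupancy (vertical axes) of H3K4me2 (green) and H3K27me3 (red) by stage for the 10 genes, 1 library per point, with bars for the 95% counting interval and dashed lines for the second Gnb5 entry. H3K4me2 lies highest at PN15 in every panel, and H3K27me3 is highest before PN15 in every panel.

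Grk1, the kinase that begins the shutoff, had an H3K4me2 of 11, 9, 25 and 65 from E17.5 to PN15, and an H3K27me3 of 19, 15, 15 and 10. Its H3K4me2 at PN15 was 5.91 times that at E17.5 (3.09 to 12.4). It was the member with the largest PN1 to PN7 change in H3K4me2 (1.88). Its H3K27me3 stayed under the receptor level in all 4 libraries, and the ratio of PN15 to E17.5 was 0.526 (0.219 to 1.19), an interval that includes 1. In mm9 Grk1 lies on chromosome 8 from 13405081 to 13421945 on the plus strand.

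The 3 genes of the transducin GTPase complex differed from one another. Rgs9, the catalytic subunit (chromosome 11, 109086669 to 109159443, minus strand), had H3K4me2 values of 51, 34, 47 and 85 in 2 identical entries, and its H3K27me3 was 25, 25, 18 and 16. Its H3K4me2 was above the receptor level at every stage and was 1.67 times as high at PN15 as at E17.5 (1.16 to 2.41). Its H3K27me3 was below that level at every stage, with a ratio of 0.640 (0.319 to 1.25).

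Rgs9bp, the anchor that holds the complex on disc membranes, carried both marks at E17.5. Its H3K4me2 was 100, 67, 135 and 174, the highest of the 10 genes at every stage. Its H3K27me3 was 129, 160, 58 and 19, which made it 6.79-fold lower at PN15 than at E17.5 (ratio 0.147, 0.0859 to 0.239). The relative change of -2.70 was at percentile 0.424 of all symbols. Rgs9bp (chromosome 7, 36364017 to 36370601, minus strand) starts 665 bp from Ankrd27, a gene on the opposite strand that encodes an ankyrin repeat protein of endosomes, and their windows share 4335 of 5000 bp. Ankrd27 had H3K4me2 values of 94, 64, 134 and 164 and H3K27me3 values of 94, 121, 44 and 18. The values of these starts cannot be told apart in windows of this width. No other member had the start of a coding neighbour within the window of its GENCODE vM1 start. The window of the RefSeq start of Gnb5 was not searched in full.

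Gnb5, the beta subunit that stabilizes Rgs9, had entries with unlike courses. In the entry named first, H3K4me2 was 13, 14, 14 and 126, a ratio of 9.69 from E17.5 to PN15 (5.47 to 18.7). In the second, which has the larger sum and stands for the symbol in all counts, it was 63, 35, 43 and 118, a ratio of 1.87 (1.37 to 2.59). The entries were apart at E17.5 (6.56 to 22.9 against 48.0 to 81.2) and at PN7 (7.29 to 24.1 against 30.7 to 58.5). Their intervals overlapped at PN15 and, barely, at PN1 (7.29 to 24.1 against 24.0 to 49.3). By the first entry the relative change was 3.05, and the gene would be called higher. H3K27me3 was between 6 and 12 in both entries at all stages. RefSeq and GENCODE vM1 place the start of Gnb5 on chromosome 9 at 75154095 and 75159202, with windows 107 bp apart, and the table does not say which entry belongs to which start.

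**Figure D2:**
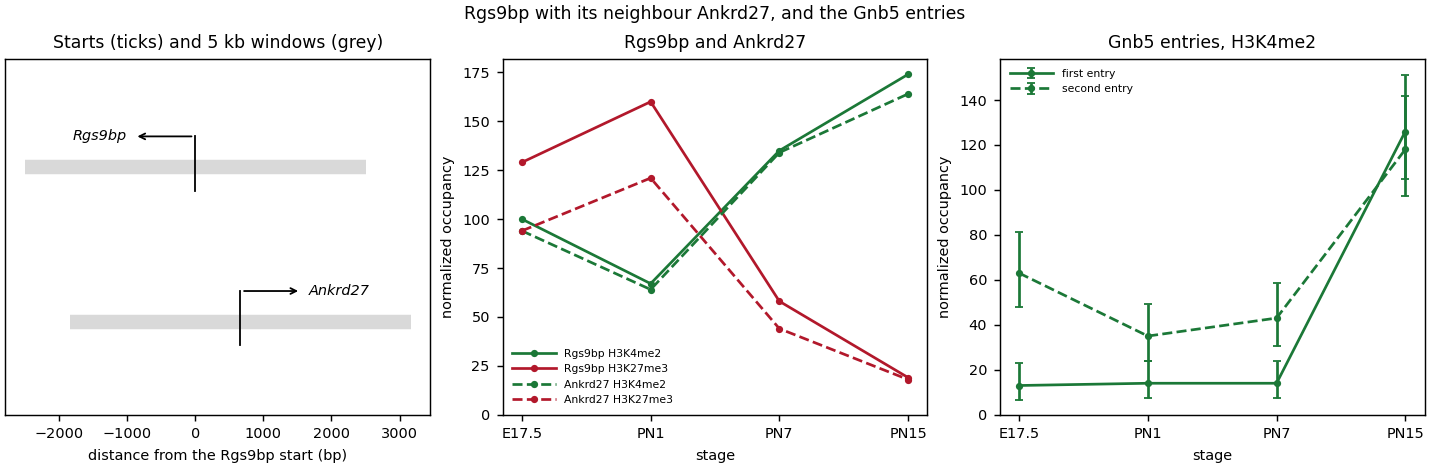
Left, starts (ticks), direction of transcription (arrows) and 5 kb windows (grey) of Rgs9bp and Ankrd27 by distance in bp from the Rgs9bp start; middle, their normalized occupancy by stage for H3K4me2 (green) and H3K27me3 (red), Ankrd27 dashed; right, H3K4me2 of the Gnb5 entries with 95% counting intervals. Rgs9bp and Ankrd27 run alike in both marks, and the Gnb5 entries meet at PN15 (126 and 118) after values of 13 and 63 at E17.5.

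The guanylate cyclases, which restore cyclic GMP, also differed in their starting state. Gucy2e (chromosome 11, 69031619 to 69050538, minus strand) had H3K4me2 values of 42, 26, 38 and 91, a ratio of 2.17 from E17.5 to PN15 (1.49 to 3.20). Its H3K27me3 was 72, 108, 34 and 17, and the ratio was 0.236 (0.130 to 0.405). Gucy2e was therefore above the receptor level in both marks at E17.5 and PN1, and above it in H3K4me2 only from PN7.

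Gucy2f (chromosome X, 138515703 to 138631474, minus strand) had H3K4me2 values of 8, 8, 2 and 63, so that its mark came between PN7 and PN15, and the ratio of PN15 to E17.5 was 7.88 (3.76 to 19.0). Its H3K27me3 was 33, 31, 39 and 25, below the receptor level in all 4 libraries, with a ratio of 0.758 (0.432 to 1.31). It was close to that level at E17.5 (33.5) and PN7 (40.5), where its intervals included the level. At E17.5 the cyclases were separated in both marks by their intervals, 29.8 to 57.3 against 3.13 to 16.4 in H3K4me2 and 55.9 to 91.2 against 22.3 to 46.9 in H3K27me3. At PN15 the H3K4me2 intervals overlapped, 72.8 to 112 against 48.0 to 81.2.

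Among the calcium sensors, Guca1a carried the most H3K27me3, and its H3K4me2 was late. Its H3K4me2 was 9, 3, 4 and 47, and its H3K27me3 117, 158, 144 and 58. The H3K4me2 ratio was 5.22 (2.53 to 12.1) and the H3K27me3 ratio 0.496 (0.355 to 0.685). At PN15 its H3K4me2 was the lowest of the 10 genes and its H3K27me3 the highest, and it was above the receptor level in H3K27me3, with Slc24a1 (40) just under that level of 41.5 and their intervals overlapping. Its relative H3K27me3 change of -1.0 lay at the 2-fold limit, and the call was lost with a pseudocount of 5 (-0.95), a filter on low values (-0.91), quantile normalization (-0.55) or a 3-fold limit.

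Guca1b lies tail to tail with Guca1a on chromosome 17 (47522342 to 47529916, plus strand, and 47531509 to 47537533, minus strand). The gap between them is 1592 bp and their starts are 15191 bp apart, so that their windows do not overlap. Guca1b had an H3K4me2 of 9, 4, 7 and 72, close to that of Guca1a through PN7, and a ratio of 8.0 (3.99 to 18.2). Its H3K27me3 was 21, 32, 44 and 31, above the receptor level at PN7 only, and the ratio was 1.48 (0.822 to 2.70). The H3K27me3 intervals of these neighbours were separate at E17.5 (96.3 to 141 against 12.6 to 32.7) and overlapped at PN15 (43.6 to 75.5 against 20.7 to 44.6).

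Rcvrn, the sensor that restrains Grk1 at high calcium (chromosome 11, 67508828 to 67516835, plus strand), had the largest H3K4me2 change of the 10 genes. Its values were 1, 9, 10 and 134, and its percentile among all symbols went from 0.419 at E17.5 to 96.9 at PN15. The ratio of 134 rests on a value of 1 and its interval ran from 23.6 to 5332. From PN7, where the value was 10, to PN15 the relative change was 2.62. The H3K27me3 of Rcvrn was 14, 18, 23 and 13, under the receptor level throughout, with a ratio of 0.929 (0.402 to 2.13).

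Slc24a1, the exchanger that removes calcium (chromosome 9, 64770668 to 64799414, minus strand), started with the most H3K27me3 of the 10 genes. Its H3K27me3 was 182, 180, 157 and 40, 4.55-fold lower at PN15 than at E17.5 (ratio 0.220, 0.152 to 0.311). Its H3K4me2 was 14, 9, 3 and 111, a ratio of 7.93 (4.53 to 15). Slc24a1 and Guca1a were the 2 members called both higher in H3K4me2 and lower in H3K27me3 between E17.5 and PN15, as were 206 of the 20045 symbols.

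**Figure D3:**
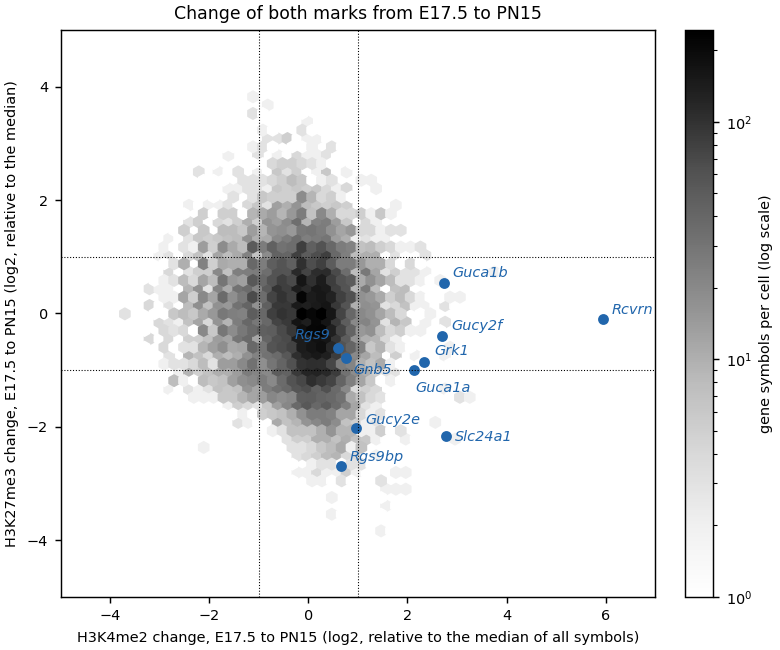
Relative log2 change from E17.5 to PN15 in H3K4me2 (horizontal) and H3K27me3 (vertical) for all 20045 symbols (grey, log colour scale of symbols per cell) and the 10 genes (blue); dotted lines mark the 2-fold limits. Rcvrn lies farthest right at 5.94, Rgs9bp lowest at -2.70, and Slc24a1 is beyond both limits at 2.77 and -2.16.

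By interval, H3K4me2 was called higher at 1 gene from E17.5 to PN1 (Rcvrn, values 1 and 9, with overlapping intervals), where 13.7% of all symbols were. From PN1 to PN7 it was higher at 4 (Grk1 1.88, Rgs9bp 1.5, Guca1b 1.18 and Gucy2e 1.03; 13.7% of all symbols) and lower at 1 (Gucy2f -1.08, values 8 and 2; 26.6%). Of these 5 genes Rgs9bp alone had separate intervals at PN1 and PN7, and the interval of the Gucy2e ratio ran from 0.865 to 2.51. Without centring 2 genes were higher and 2 lower over this interval, and 1 was higher and 2 lower from E17.5 to PN1. From PN7 to PN15 it was higher at 5 (Slc24a1 3.81, Gucy2f 3.42, Rcvrn 2.62, Guca1a 2.26 and Guca1b 2.19), beside 15.9% of all symbols. Over that interval all symbols had an uncentred median change of 1.0, which is the 2-fold limit. Without centring 8 of the 10 genes were past that limit. From PN1, in place of PN7, to PN15 the count was also 8. The share of all symbols was not computed for either count of 8, so neither can be set beside the 15.9%.

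H3K27me3 was past 2-fold at none of the 10 genes from E17.5 to PN1, where 5.77% of all symbols were higher and 8.27% lower. From PN1 to PN7 it was lower at Gucy2e (-1.48) and Rgs9bp (-1.29), 2 of 10 beside 9.33%. From PN7 to PN15 it was lower at Slc24a1 (-1.95), Rgs9bp (-1.56) and Guca1a (-1.30), 3 of 10 beside 9.70%. At Slc24a1 and Guca1a both marks were past 2-fold between PN7 and PN15. The share of all symbols past it in both marks over this interval was not computed. Their H3K4me2 at PN7 was 3 and 4, in the library that stood apart.

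Above the receptor level in H3K4me2 were 9, 4, 10 and 10 of the 10 genes from E17.5 to PN15, beside 72.6%, 69.0%, 72.1% and 68.3% of all symbols. Several of the early values were close to that level, so that these counts turn on a few units. In H3K27me3 they were 4, 4, 4 and 1, beside 17.1%, 15.4%, 15.9% and 13.8%. With the 95th percentile of the receptor entries as the level, the counts from E17.5 to PN15 were 9, 7, 10 and 10 in H3K4me2. In H3K27me3 they were 6, 7, 7 and 3. The share of all symbols above the 95th percentile was not computed, so these counts have no background beside them. At the 99th, Slc24a1, Rgs9bp and Guca1a were above it through PN7, Gucy2e at E17.5 and PN1, and Guca1b at PN7.

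The counts were also set beside symbols of a like starting level. The 6 genes called higher in H3K4me2 were the 6 with a value of 20 or less at E17.5, a bound chosen after seeing the data, and 10.9% of the 7118 symbols under the same bound were called higher, with a median change of -0.13. The 4 genes called lower in H3K27me3 were the 4 above the receptor level at E17.5, and 43.4% of the 3427 symbols above it were called lower, with a median of -0.85. The count in H3K27me3 thus stands beside a higher background than the 16.1% of all symbols.

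The order of the H3K4me2 levels, compared as occupancy in windows of equal width, changed between the ends of the course. At E17.5 it ran from Rgs9bp (100) through Gnb5, Rgs9 and Gucy2e (42) to Slc24a1 (14), Grk1, Guca1a, Guca1b, Gucy2f and Rcvrn (1). The only neighbours in that order with separate intervals were Gucy2e and Slc24a1, and 27 of the 45 pairs were separate. At PN15 it ran from Rgs9bp (174), Rcvrn (134), Gnb5 (118) and Slc24a1 (111) through Gucy2e, Rgs9, Guca1b, Grk1 and Gucy2f to Guca1a (47), where none of the 9 pairs of neighbours and 22 of the 45 pairs were separate. In H3K27me3, 30 of the 45 pairs were separate at E17.5 and 15 at PN15. The share of separate pairs over all symbols was not computed for either mark. The sum of the whole H3K27me3 library was 854731 at E17.5 and 590366 at PN15, and its highest value 809 and 416.

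The other rod cascade genes (10 of 11 listed were found, without Cngb1) were called higher in H3K4me2 at 9 of 10 with a median of 2.79. Their list was not limited to genes that carry the response forward. Gnb1, the transducin beta subunit that is used widely, was the one not called (80 and 100). In H3K27me3 1 was higher and 4 lower, with a median of -0.56. At E17.5 1 of these 10 genes was above the receptor level in H3K27me3, against 4 of the 10 shutoff and calcium genes, and the highest values were 43.0 and 182.

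The 11 cone counterparts had a median H3K4me2 change of -0.51, with 2 higher and 2 lower, where 12.8% of all symbols were lower in H3K4me2. In H3K27me3 5 were higher, beside 12.2% of all symbols, and none lower (median 0.88, against -0.82 for the shutoff and calcium genes). Slc24a2, the cone exchanger, had an H3K4me2 of 47 at E17.5 and 36 at PN15 and an H3K27me3 of 34 and 22, unlike Slc24a1. Of 29 relatives used in other tissues or neurons, which share Gnb1, Gnb3 and Slc24a2 with the lists above, 2 were higher and 2 lower in H3K4me2 (median -0.03), and 6 were higher and 6 lower in H3K27me3 (median -0.24). Hpcal4, a neuronal relative of Rcvrn, had an H3K27me3 of 242 at E17.5 and 55.0 at PN15 with an H3K4me2 of 46.0 and 39.0. These lists were compared by counts and medians, and the differences between them were not tested.

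**Figure D4:**
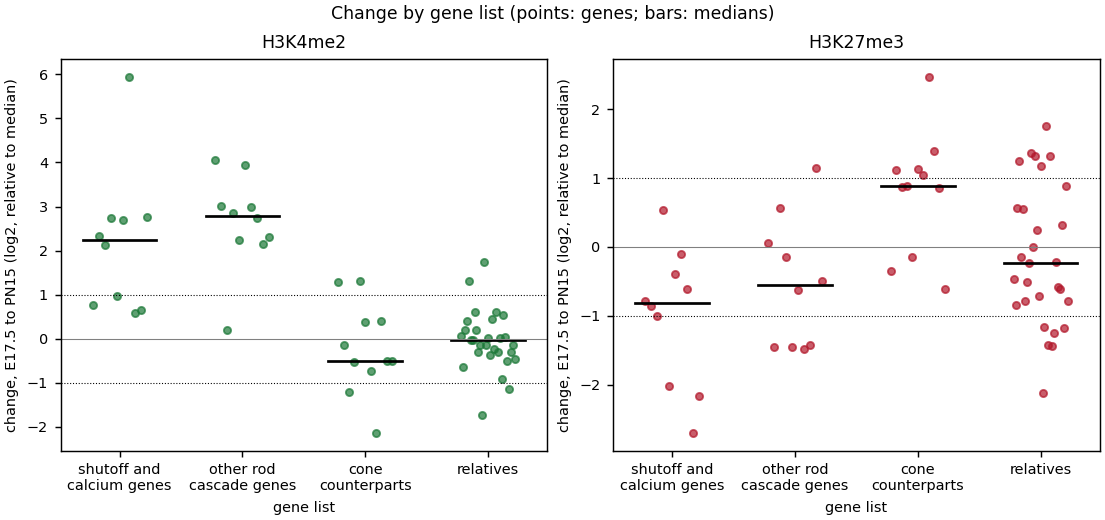
Relative log2 change from E17.5 to PN15 (vertical axes) in H3K4me2 (left) and H3K27me3 (right) for the 10 shutoff and calcium genes, the 10 other rod cascade genes, 11 cone counterparts and 29 relatives; points are genes, bars medians and dotted lines the 2-fold limits. The H3K4me2 medians are 2.23, 2.79, -0.51 and -0.03, and those of H3K27me3 -0.82, -0.56, 0.88 and -0.24.

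The symbols most like each gene over the 8 libraries were ranked by the Euclidean distance of log2(value + 1). The nearest to Rcvrn were Pde6a (2.10), the catalytic subunit of the rod phosphodiesterase, Cabp4 (2.28), a calcium-binding protein of photoreceptor synapses, and Fcer1g (2.37). The nearest to Guca1b were Cnga1 (1.41), the rod channel subunit, Pcp4 (1.65) and Gnat1 (1.79), rod transducin. Those of Gucy2f were Sebox (1.35), Pcp4 (1.63) and Cfi (1.74). Grk1 was nearest to 4933403G14Rik (0.82), Rp1l1 (1.23), which encodes a protein of the photoreceptor axoneme, and Tnfsf12 (1.30).

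Guca1a and Slc24a1, the genes with high H3K27me3 and late H3K4me2, shared BC030476 among their nearest (1.86 and 2.43), beside Marveld3 (1.86) and Grip2 (1.96) for Guca1a and D730039F16Rik (2.11) and Rnf207 (2.5) for Slc24a1. Rgs9bp was nearest to Zadh2 (0.62), its neighbour Ankrd27 (0.74) and Fos (0.75). Rgs9 (Dnaic1 0.34, Tmem25 0.41, Malt1 0.48), Gnb5 (Gm16517 0.50, Maea 0.55, Azi2 0.56) and Gucy2e (Rasgrf2 0.64, 0610010O12Rik 0.72, Nacad 0.74) had a nearest symbol at a smaller distance than the 6 genes called higher in H3K4me2 from E17.5 to PN15, for which it was 0.82 (Grk1) to 2.11 (Slc24a1).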

How the data were processed

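ChIP-Seq of H3K4me2 and H3K27me3 in mouse retina was used. The authors mapped reads with Bowtie 0.12.4 (also per the labels) to mm9, discarded reads with several positions, assumed fragments of 190 bp and counted them within 2.5 kb of RefSeq starts. The deposited table holds scores (normalized occupancies), which the authors had scaled by mapped reads and rounded, so no count model was fitted between stages. The name of the PN7 column of H3K27me3 has an added b. The entry with the largest sum stood for a symbol (3224 symbols had several). Changes were log2((later + 1)/(earlier + 1)) minus the median of all symbols. Intervals took 1 unit as 1 read, since no whole number below 110 was missing in any library. They were conditional binomial for ratios and Poisson for values. Those for values were widened to allow for rounding, so that they overlap more often than exact ones. All members and the 3 nearest symbols were named, and genes of the lists could be. A gene of the rod lists, other than those named, is not reported here by itself. The members and lists were chosen with earlier results of these data known. The script for changes was tested on simulated data. Python 3.11.15, numpy 2.4.6, pandas 2.3.3, scipy 1.17.1, pysam 0.24.0 and matplotlib 3.10.9 were used. Positions are from GENCODE vM1 on mm9.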

Additional observations from a re-analysis of the deposited data

How the results depend on the processing

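No paired analysis was possible because each mark and stage had 1 library, so no replicate could be left out either. Of 66 counts recomputed under an alternative, 52 were within 1.5 times the reported count. Of 120 changes of single genes, all from E17.5 to PN15, 114 kept their direction and their side of the limit. None of these changes was reversed. Changes of single genes between neighbouring stages were not among them, and some turn sign without centring. One is that of Rgs9bp in H3K4me2 from PN7 to PN15 (-0.64 centred, 0.36 uncentred). The 6 H3K4me2 calls and 4 H3K27me3 calls from E17.5 to PN15 had counts within 1.5 times under every alternative run. In H3K4me2 from E17.5 to PN1 the count of 1 became 3 (1 higher and 2 lower) without centring or with quantile normalization and 0 among symbols with a larger value of at least 10. From PN1 to PN7 the count of 5 (4 higher and 1 lower) became 2 higher and 0 lower with a pseudocount of 5 or the same filter, 1 higher and 0 lower with a 3-fold limit, and 2 higher and 2 lower without centring. From PN7 to PN15 the count of 5 became 8 without centring and also 8 with PN1 in place of PN7, an alternative chosen after seeing the data. The share of all symbols was not computed under the alternatives. In H3K27me3 a 3-fold limit left 0 of 2 from PN1 to PN7 and 1 of 3 from PN7 to PN15. With the 95th percentile of the receptor entries as the background level, 7 genes in place of 4 were above it in H3K4me2 at PN1, and in H3K27me3 7 in place of 4 at PN1, 7 in place of 4 at PN7 and 3 in place of 1 at PN15. Gnb5 passed the limit in H3K4me2 as the mean of its entries (1.53) and Gucy2e without centring (1.10). The causes were not tested. A single library per stage limits all values, and those under about 10 have intervals that span several fold.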
